A study of Mus musculus with 12 samples.

Results

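The genes described here are 34 interferon-stimulated genes of the mouse, taken by symbol from a list written for their known induction by type I interferons and followed through RNA-seq libraries of skin. The list was written with earlier results of these data known, so shares of members set beside shares of all genes are a description. All 34 were found among the 47643 gene IDs of the deposited tables. The libraries came from whole skin and from epidermis of 10-week-old C57BL/6 mice, and each preparation was compared between wild type (WT) and Adam17 conditional knockout (KO) mice, with 3 libraries in each of the 4 groups. ADAM17 is a membrane protease that sheds growth factors, cytokines and their receptors from the cell surface. In the knockout, floxed Adam17 alleles were deleted by Sox9-Cre, a Cre driven by a gene of the hair follicle lineage, so cells outside that lineage could keep the gene. The labels give the wild type groups no Cre or floxed allele, and do not say whether libraries came from separate mice or whether skin and epidermis came from the same mice. The p-values given here therefore measure the spread between these libraries, which may be technical.

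Type I interferons are secreted antiviral cytokines that act through the receptor IFNAR1/IFNAR2, the kinases JAK1 and TYK2, and a transcription factor complex that contains STAT2 and IRF9. That complex binds interferon-stimulated response elements in the promoters of its target genes. The targets include sensors of viral RNA, enzymes that degrade RNA or block translation, the ubiquitin-like protein ISG15 with its ligase and protease, and transcription factors that feed back on the response. In skin, keratinocytes, plasmacytoid dendritic cells and macrophages are known sources or responders of these cytokines.

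Library totals ran from 12208522 to 16743144 expected counts, and 3 counts corresponded to between 0.179 and 0.246 CPM (counts scaled to a common library total), which sets the lower limit of what can be read from a single library. Levels below are CPM scaled by TMM factors over all 12 libraries unless TPM (the length-corrected measure of transcript abundance) or reads are named, and fold changes are on the log2 scale, from the quasi-likelihood test of edgeR, with p-values adjusted over all genes tested (Benjamini-Hochberg) and a threshold of 0.05. Adam17 itself was at 72.3, 96.3 and 94.1 CPM in WT skin and at 41.6, 52.1 and 52.5 in KO skin, and at 78.9, 86.4 and 79.4 in WT epidermis and 48.4, 58.1 and 47.3 in KO epidermis. It was lower in the knockout by 0.75 (SE 0.16, adjusted p = 0.00797) in skin and by 0.66 (SE 0.12, adjusted p = 0.00213) in epidermis on the log2 scale, without overlap between the groups. The skin call of Adam17 held in 14 of 16 alternative settings (adjusted p up to 0.170) and the epidermal call in 15 of 15. Reads of 4 Y-linked genes were at 0 in all 6 WT libraries and at 1728, 0 and 1034 in KO skin and 1781, 213 and 679 in KO epidermis. Xist, which coats the inactive X, was at 0 reads in replicate 1 of KO skin and of KO epidermis and was present in the other libraries, among them Skin KO 3, Epidermis KO 2 and Epidermis KO 3, which also held Y-linked reads. Y-linked reads were thus found in knockout libraries alone, so sex and genotype cannot be fully told apart. A library with both Xist and Y-linked reads could hold RNA of more than 1 mouse, which was not tested, and n counts libraries. Member counts with their share as a covariate are given beside the main counts.

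The sequence read by the complex that contains STAT2 and IRF9 is shown first, because it was not used to choose the members and about as many windowed members hold it as lack it. Of the 34 members, 25 had a promoter window in the RefSeq table for GRCm38.p6 (250 bases before to 50 after a gene's start), and 13 of them (52.0%) held GAAA and GAAA separated by 2 bases of any kind, on either strand, against 1079 of 27025 genes of the table (3.99%). Overlapping matches within a promoter were counted as 1 promoter, and a match describes letters, not a bound site. Below are 120 bases from the promoters of Isg15 (chr4:156200819-156200938, minus strand), Ifit1 (chr19:34640769-34640888, plus strand), Ifit3 (chr19:34583353-34583472, plus strand), Oas1a (chr5:120907526-120907645, minus strand) and Xaf1 (chr11:72301509-72301628, plus strand), and a 27-base stretch just inside the transcript of Ifitm3 (chr7:141010716-141010742, minus strand). Each reads 5′ to 3′ on the gene's strand, and capitals mark matches to the motif or to its reverse complement (TTTC, 2 bases of any kind, TTTC). Isg15 has 3 overlapping matches, Ifit1 and Ifit3 hold it in the other orientation, Xaf1 stands for the members without a match in the window, and Ifitm3 is the member that rose in knockout skin.
Isg15: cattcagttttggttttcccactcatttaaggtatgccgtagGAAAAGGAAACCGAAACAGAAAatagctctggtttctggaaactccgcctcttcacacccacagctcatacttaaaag
Ifit1: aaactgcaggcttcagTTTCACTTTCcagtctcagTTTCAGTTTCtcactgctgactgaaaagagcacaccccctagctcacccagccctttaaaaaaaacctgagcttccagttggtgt
Ifit3: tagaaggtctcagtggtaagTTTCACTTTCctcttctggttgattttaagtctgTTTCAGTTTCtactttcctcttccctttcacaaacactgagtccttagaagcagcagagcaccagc
Oas1a: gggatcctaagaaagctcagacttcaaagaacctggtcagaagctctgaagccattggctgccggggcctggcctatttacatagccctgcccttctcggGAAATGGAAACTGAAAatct
Xaf1: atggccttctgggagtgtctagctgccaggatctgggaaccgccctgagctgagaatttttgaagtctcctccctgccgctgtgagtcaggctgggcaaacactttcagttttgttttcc
Ifitm3: GAAAAGGAAActtctgaGAAACCGAAA
The 120 bases printed for Ifit3 are letter for letter the same in its neighbour Ifit3b (chr19:34607749-34607868, plus strand), and the transcripts of this pair were 97.8% identical over 1700 aligned bases. Their counts were not whole numbers in 8 of 12 libraries, so reads were shared between them by estimate and their single values are uncertain. The same holds for Oas1a, whose counts were not whole in 12 of 12 libraries and whose transcript was 97.5% identical to that of Oas1g. Of the 8 members that fell in epidermis, 6 had a window (Isg15, Isg20, Xaf1, Irf7, Cmpk2 and Herc6) and Isg15 was the 1 among them with a match.

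In whole skin, most of the interferon-stimulated genes that could be tested were lower in the knockout, all of those tested in the ISG15 system, the IFIT family, the Mx GTPases (1 tested), the viperin pair and the transcription factors, and a part of those in the other classes. Of 31 members that passed the filter on low counts, 23 fell and 1 rose, against 23.3% and 22.2% of all 14906 genes tested (45.5% in either direction), and 7 did not pass the test (Ddx58, Zbp1, Oas1a, Oas3, Oasl2, Ifi35 and Parp14). The median log2 fold change of the tested members was -1.35, beside -0.00 over all genes. Members were chosen with earlier results of these data known, so these contrasts with all genes are a description. The member that rose was Ifitm3, a membrane protein that blocks virus entry. All 3 KO libraries lay below all 3 WT libraries for 24 of the 34 members, beside 32.2% of all genes tested, and above them for 1, beside 25.8%. Ifi44, Mx1 and Oasl1 were too low to be tested. Some of the members that fell passed the filter through WT skin, where they are high. Among these were Mx2 (2, 0 and 2 reads in KO skin), Ifit3b (6, 3 and 6), Rsad2 (9, 7 and 7) and Oas2 (8, 6 and 9). Nothing is read from their place in the count against all genes. In bulk tissue, fewer cells of a type and less RNA per cell cannot be told apart.

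The skin count depended on the libraries and on the Y-linked share. Without Skin WT 3, 15 members were called lower, with the Y-linked share as a covariate 14, and with Skin KO 2 as the single knockout library, which held no Y-linked reads, 11. Ifitm3 was called higher in each of these settings. Usp18, Isg20, Ifi27l2a, Ifit3b, Mx2, Cmpk2, Stat2, Xaf1 and Ifitm3 kept their call in 16 of 16 alternative settings, whereas Ifit1, Dhx58, Irf7, Rtp4, Bst2 and Trim30a lost it in 6 to 9 of them.

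In epidermis fewer members could be tested and calls ran both ways. Of 21 members tested, 8 fell (Usp18, Isg20, Isg15, Xaf1, Irf7, Ifi27l2a, Cmpk2 and Herc6) and 1 rose (Samd9l), against 25.3% and 26.2% of all 13632 genes tested (51.5% in either direction). The median log2 fold change of the tested members was -0.38, beside 0.00 over all genes. Cmpk2 (2, 6 and 6 reads in KO epidermis) passed the filter through WT epidermis, and nothing is read from its place in the count. Of the 21 tested members, the KO libraries lay below the WT libraries for 9 and above them for 2, beside 31.6% and 30.4% of genes tested. Over all 34 members the numbers were 9 and 6, the other 4 being members too low to be tested. The 13 members too low to be tested were Zbp1, Ifit2, Ifit3, Ifit3b, Oas2, Oas3, Oasl1, Mx1, Mx2, Rsad2, Ifi44, Rtp4 and Trim30a. All 8 members that fell in epidermis also fell in skin. Another 6 of the 21 fell in skin and did not pass in epidermis (Ifit1, Ifih1, Dhx58, Irf9, Stat2 and Bst2), and 5 passed in neither. With the Y-linked share as a covariate, 3 members were called lower and 3 higher in epidermis, and without Epidermis KO 1 the counts were 5 and 5. Without Epidermis WT 1, Epidermis WT 3 or Epidermis KO 2 no member was called higher, and without Epidermis KO 3 the number was 2.

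**Figure D1:**
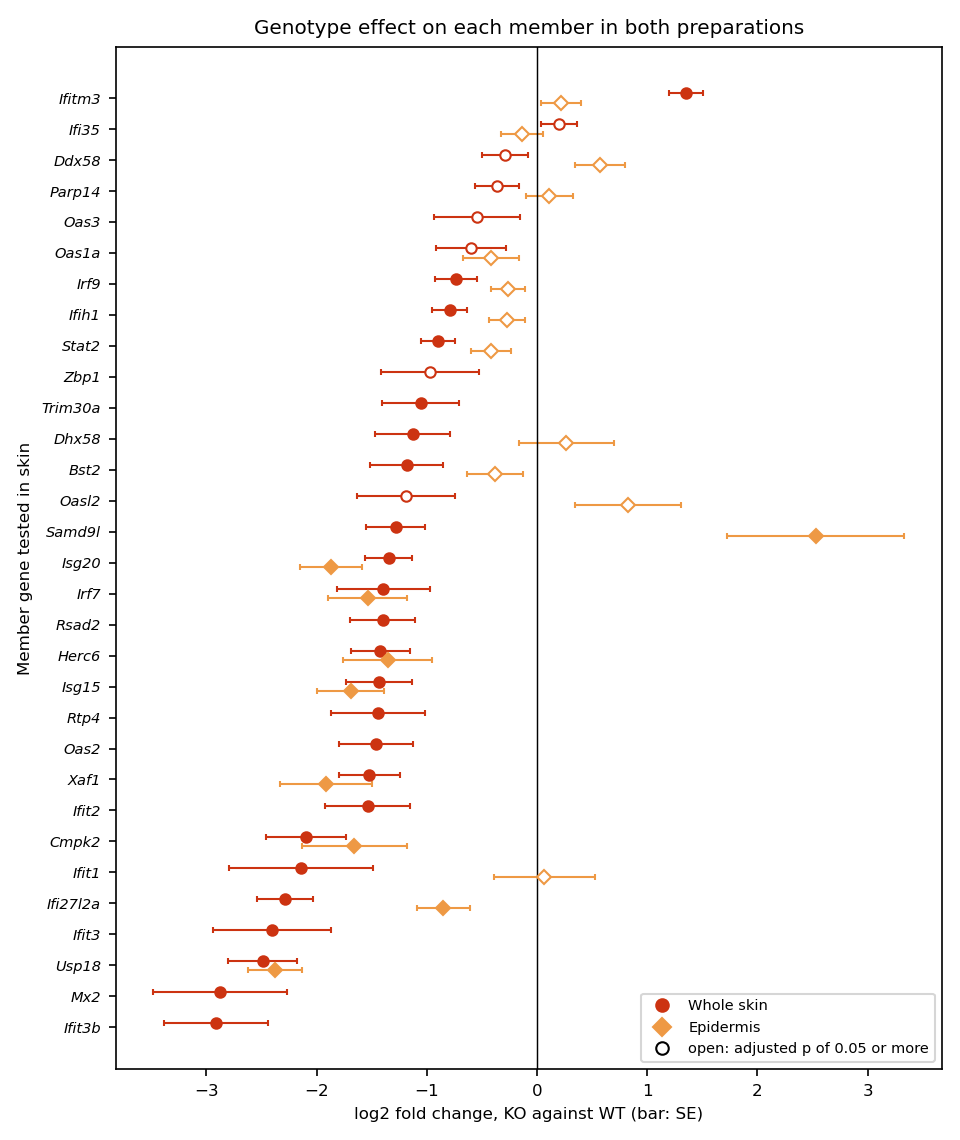
Log2 fold change of knockout against wild type (x axis, bars are SE) for each member tested in skin, in whole skin (circles) and, where tested, in epidermis (diamonds). Filled symbols have an adjusted p under 0.05. Skin values of 29 of 31 members lie left of 0. Samd9l, Ifit1, Dhx58, Ddx58, Oasl2 and Parp14 lie left of 0 in skin and right of it in epidermis. Of these, Samd9l alone passed in epidermis.

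The ISG15 system was lower in both preparations. Isg15 encodes a ubiquitin-like protein that is attached to other proteins, Herc6 its main ligase in the mouse, and Usp18 the protease that removes it and also damps signalling at the interferon receptor. Usp18 was at 13.8, 13.8 and 12.5 CPM in WT skin and 2.98, 1.21 and 2.47 in KO skin, and at 25.0, 29.9 and 24.4 in WT epidermis and 3.08, 5.58 and 6.36 in KO epidermis. The KO libraries were below the WT libraries in both preparations, and Skin KO 2 was the lowest of the 12. Usp18 fell by 2.49 (SE 0.31, adjusted p = 0.00116) in skin and by 2.38 (SE 0.25, adjusted p = 0.000143) in epidermis on the log2 scale. The effect in epidermis minus that in skin was 0.18 (SE 0.41, adjusted p = 0.789).

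Isg15 stood at 8.33, 4.13 and 7.29 CPM in WT skin, 2.34, 2.14 and 2.35 in KO skin, 5.12, 7.38 and 10.5 in WT epidermis and 2.13, 2.79 and 2.12 in KO epidermis. The WT libraries varied more than the KO libraries, and the groups did not overlap in either preparation. It fell by 1.43 (SE 0.30, adjusted p = 0.00825) in skin and by 1.69 (SE 0.30, adjusted p = 0.00205) in epidermis on the log2 scale. The epidermal call of Isg15 held in 15 of 15 alternative settings, and the skin call was lost with the Y-linked share as a covariate (adjusted p = 0.0533) and with Skin KO 2 alone (adjusted p = 0.113). Herc6 read 2.87, 3.76 and 3.89 CPM in WT skin against 1.14, 1.00 and 1.52 in KO skin, and 3.18, 4.14 and 1.99 in WT epidermis against 0.79, 1.75 and 1.06 in KO epidermis. Epidermis WT 3 was the WT library nearest to the KO libraries, without overlap. Herc6 fell by 1.42 (SE 0.27, adjusted p = 0.0054) in skin and by 1.36 (SE 0.41, adjusted p = 0.0214) in epidermis, and the epidermal call was lost without Epidermis WT 1, Epidermis WT 2, Epidermis KO 1 or Epidermis KO 3 (adjusted p from 0.0574 to 0.0883). It was also lost with the Y-linked share as a covariate (-0.76, adjusted p = 0.296) and with effective length offsets (adjusted p = 0.0836). In skin the call of Herc6 was lost with effective length offsets (-0.79, adjusted p = 0.166) and with Skin KO 2 alone (adjusted p = 0.0599). Its counts were not whole in 8 of 12 libraries.

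**Figure D2:**
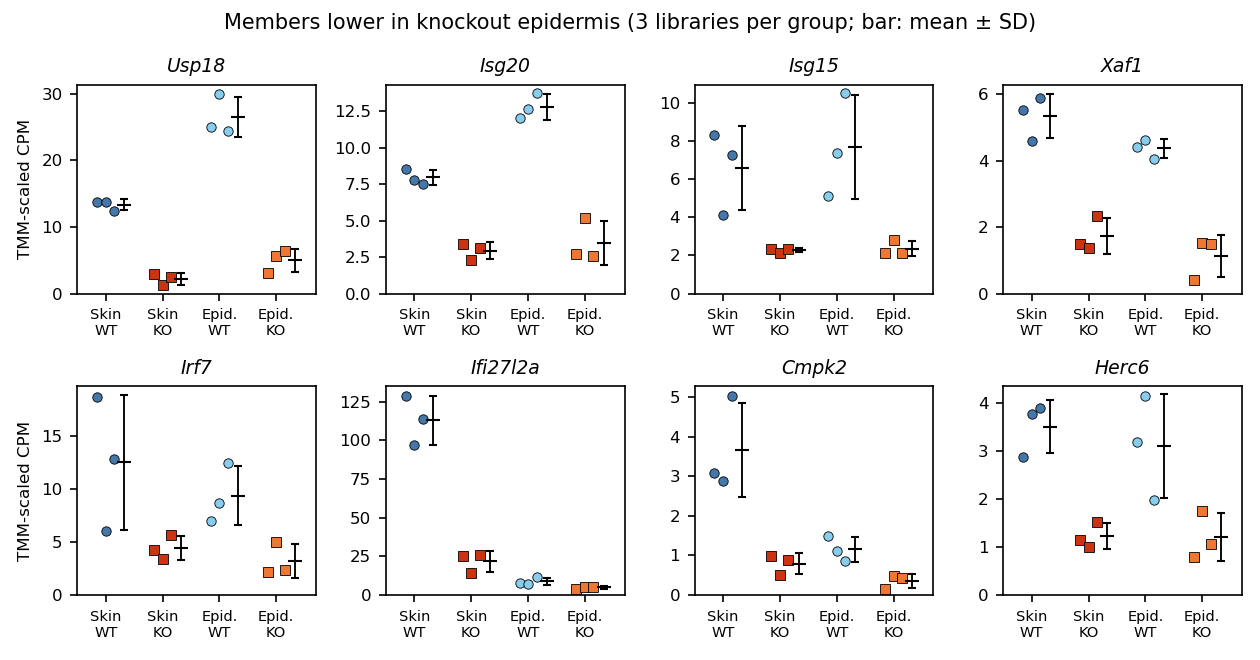
TMM-scaled CPM (y axis) of the 8 members that fell in KO epidermis, 1 point per library in WT and KO skin and WT and KO epidermis, with mean and SD of 3 libraries beside each group. Usp18 lies between 24.4 and 29.9 CPM in WT epidermis and between 3.08 and 6.36 in KO epidermis, and Ifi27l2a falls from a far higher level in skin than in epidermis.

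Of the transcription factors of the response, all 3 fell in skin and 1 in epidermis. Irf7 amplifies interferon production, and Stat2 and Irf9 are the parts of the activating complex that are specific to type I and III interferons. Irf7 was at 18.8, 6.06 and 12.8 CPM in WT skin and 4.26, 3.43 and 5.71 in KO skin, and at 6.98, 8.69 and 12.4 in WT epidermis and 2.21, 5.02 and 2.33 in KO epidermis. Skin WT 2 lay close to Skin KO 3, and neither preparation showed overlap. Irf7 fell by 1.39 (SE 0.42, adjusted p = 0.0319) in skin and by 1.54 (SE 0.36, adjusted p = 0.00708) in epidermis. With the Y-linked share as a covariate both calls were lost, at -1.57 (adjusted p = 0.12) in skin and -0.95 (adjusted p = 0.126) in epidermis. Its skin call was lost without any 1 of 5 skin libraries, all but Skin WT 2 (adjusted p from 0.0527 to 0.104). Irf7 overlaps Phrf1 on the opposite strand, which held 8591 reads over the 12 libraries beside 1266 for Irf7, and the strand setting of the counting is not given in the sources used here.

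Stat2 was at 19.8, 20.5 and 24.5 CPM in WT skin, 11.5, 9.28 and 11.9 in KO skin, 23.2, 24.0 and 24.5 in WT epidermis and 13.0, 20.4 and 19.6 in KO epidermis. The groups were apart in both preparations, with Epidermis KO 1 well below the other epidermal libraries. In skin Stat2 fell by 0.90 (SE 0.16, adjusted p = 0.0041). In epidermis its log2 fold change was -0.42 (SE 0.18, adjusted p = 0.0798). Irf9 averaged 36.9 ± 4.52 CPM (SD, n = 3) in WT skin and 20.8 ± 4.76 in KO skin, a fall of 0.73 (SE 0.19, adjusted p = 0.0186) on the log2 scale that was lost without Skin WT 3 (adjusted p = 0.0623) or Skin KO 3 (adjusted p = 0.0616), and 49.2 ± 7.94 and 40.5 ± 4.82 in WT and KO epidermis (log2 fold change -0.27, SE 0.15, adjusted p = 0.174). It overlaps Rnf31 on the same strand.

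The IFIT family, which binds foreign RNA and blocks its translation, sits in a cluster on chromosome 19 and fell as a whole in skin, 4 of 4 members, while being near the detection limit in WT epidermis. Ifit3 was at 14.6, 4.02 and 12.5 CPM in WT skin and 1.28, 1.5 and 2.66 in KO skin. In epidermis it gave 4, 0 and 0 reads in the WT libraries and 3, 20 and 3 in the KO libraries. Its near copy Ifit3b was at 4.20, 1.72 and 2.49 CPM in WT skin and 0.426, 0.214 and 0.381 in KO skin, with 1, 0 and 3 reads in WT epidermis and 3, 16 and 2 in KO epidermis. For both genes Skin WT 2 was the lowest WT library of skin, without overlap, and Epidermis KO 2 held most of the epidermal reads. Ifit3 fell by 2.40 (SE 0.53, adjusted p = 0.01) and Ifit3b by 2.91 (SE 0.47, adjusted p = 0.00314) in skin on the log2 scale, and the call of Ifit3 was lost with the Y-linked share as a covariate (adjusted p = 0.0877). Ifit1 averaged 5.28 ± 2.95 CPM (SD, n = 3) in WT skin and 1.11 ± 0.666 in KO skin (a fall of 2.14, SE 0.65, adjusted p = 0.0325), and 0.793 ± 0.295 and 0.812 ± 0.322 in WT and KO epidermis. Ifit2 averaged 3.66 ± 0.848 and 1.17 ± 0.522 CPM in skin (a fall of 1.54, SE 0.38, adjusted p = 0.0157) and held 6 reads in WT and 13 in KO epidermis. The Ifit1 call was lost without Skin WT 1, Skin WT 3, Skin KO 2 or Skin KO 3 (adjusted p from 0.0702 to 0.101) and that of Ifit2 without Skin WT 3 (adjusted p = 0.0583).

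Of the 4 cytosolic nucleic acid sensors, 2 fell in skin and none of the 3 tested passed in epidermis. Ifih1 encodes MDA5, a sensor of long viral RNA, Ddx58 encodes RIG-I, Dhx58 encodes LGP2, which modulates both, and Zbp1 binds left-handed nucleic acids and can trigger cell death. Ifih1 was at 18.8, 20.7 and 23.6 CPM in WT skin, 12.2, 9.64 and 12.4 in KO skin, 20.2, 20.3 and 20.9 in WT epidermis and 14.2, 20.5 and 15.5 in KO epidermis. The skin groups were apart, and in epidermis Epidermis KO 2 lay among the WT libraries. Ifih1 fell by 0.79 (SE 0.16, adjusted p = 0.00682) in skin, and its epidermal log2 fold change was -0.28 (SE 0.16, adjusted p = 0.186). Dhx58 averaged 2.92 ± 1.01 CPM (SD, n = 3) in WT and 1.24 ± 0.244 in KO skin, a fall of 1.13 (SE 0.34, adjusted p = 0.0318) that was lost without each of Skin WT 1, Skin WT 3 and the 3 KO libraries (adjusted p from 0.0577 to 0.101). The Dhx58 call was also lost with the Y-linked share as a covariate (-1.18, adjusted p = 0.137) and with effective length offsets (adjusted p = 0.0877). Ddx58 averaged 10.2 ± 1.74 and 7.84 ± 1.51 CPM in WT and KO skin (log2 fold change -0.29, SE 0.21, adjusted p = 0.285) and 4.64 ± 0.128 and 6.82 ± 1.42 in WT and KO epidermis (0.57, SE 0.22, adjusted p = 0.0586). Zbp1 read 5.81, 2.56 and 4.19 CPM in WT skin, 0.993, 2.36 and 2.60 in KO skin, 0.530, 0.414 and 0.345 in WT epidermis and 0.632, 2.23 and 0.918 in KO epidermis. The skin groups overlapped at Skin WT 2 and Skin KO 3, and the epidermal KO libraries were all above the WT libraries. In skin its log2 fold change was -0.97 (SE 0.44, adjusted p = 0.114).

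The oligoadenylate synthetases, which make the second messenger that activates RNase L, had 1 call among the 4 tested in skin. This was Oas2, at 1.56 ± 0.413 CPM (SD, n = 3) in WT and 0.522 ± 0.0813 in KO skin, a fall of 1.46 (SE 0.34, adjusted p = 0.0113) that was lost with the Y-linked share as a covariate (adjusted p = 0.0521) and with Skin KO 2 alone (adjusted p = 0.126). Oasl2 averaged 8.87 ± 3.34 and 3.63 ± 1.94 CPM in WT and KO skin, or -1.19 (SE 0.45, adjusted p = 0.0655) on the log2 scale, and with the replicate number as a block it passed (adjusted p = 0.0151). The skin values of Oas1a (-0.60, SE 0.32, adjusted p = 0.166) and Oas3 (-0.54, SE 0.39, adjusted p = 0.295) did not pass. In epidermis Oas1a (-0.42, SE 0.25, adjusted p = 0.195) and Oasl2 (0.82, SE 0.48, adjusted p = 0.182) were tested and did not pass. Oasl1, a relative that restrains IRF7 translation, gave 1, 0 and 0 reads in WT epidermis and 1, 33 and 5 in KO epidermis, a ratio of 37.0 with a 95% counting interval from 6.26 to 1498 that rests on Epidermis KO 2. This interval and those of other low counts cover counting error only. Of the Mx proteins, GTPases that trap viral capsids, Mx2 gave 11, 13 and 14 reads in WT skin and 2, 0 and 2 in KO skin, a fall of 2.88 (SE 0.61, adjusted p = 0.00827) on the log2 scale. Mx1 gave 5, 8 and 19 reads in WT skin and 9, 4 and 1 in KO skin. C57BL/6 mice are known to carry a defective Mx1 allele, and the annotation lists Mx2 as a polymorphic pseudogene.

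Rsad2 (viperin, which makes an antiviral nucleotide analogue) and Cmpk2 (a mitochondrial nucleotide kinase) are neighbours on chromosome 12 and both fell in skin. Cmpk2 was at 3.08, 2.87 and 5.04 CPM in WT skin, 0.993, 0.500 and 0.888 in KO skin, 1.5, 1.10 and 0.864 in WT epidermis and 0.158, 0.478 and 0.424 in KO epidermis. The groups were apart in both preparations, and Cmpk2 fell by 2.10 (SE 0.36, adjusted p = 0.00401) in skin and by 1.66 (SE 0.48, adjusted p = 0.018) in epidermis. The epidermal call was lost with the Y-linked share as a covariate (-0.86, adjusted p = 0.339), without Epidermis WT 1 (adjusted p = 0.074) or Epidermis KO 1 (adjusted p = 0.0541), and with DESeq2 (adjusted p = 0.0537). Rsad2 was at 1.54, 1.31 and 1.64 CPM in WT skin and 0.639, 0.500 and 0.444 in KO skin, a fall of 1.40 (SE 0.29, adjusted p = 0.00824). In epidermis it gave 0, 1 and 0 reads in the WT libraries and 7, 18 and 6 in the KO libraries, a ratio of 29.4 (95% counting interval 4.90 to 1198). Each KO library of epidermis thus held more Rsad2 reads than any WT library, while each KO library of skin held fewer.

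Of the 9 other interferon-induced genes, 6 of 8 tested fell in skin, and in epidermis 3 of 6 fell and 1 rose. Isg20, an exonuclease that degrades viral RNA, was at 8.54, 7.78 and 7.53 CPM in WT skin, 3.41, 2.28 and 3.11 in KO skin, 12, 12.6 and 13.7 in WT epidermis and 2.69, 5.18 and 2.54 in KO epidermis. The WT and KO libraries were far apart in both preparations. It fell by 1.35 (SE 0.21, adjusted p = 0.00288) in skin and by 1.87 (SE 0.28, adjusted p = 0.000809) in epidermis. Xaf1, which promotes cell death, was at 5.53, 4.60 and 5.89 CPM in WT skin, 1.49, 1.36 and 2.35 in KO skin, 4.42, 4.62 and 4.06 in WT epidermis and 0.395, 1.51 and 1.48 in KO epidermis. No KO library reached a WT library. Xaf1 fell by 1.52 (SE 0.28, adjusted p = 0.00475) in skin and by 1.92 (SE 0.42, adjusted p = 0.00521) in epidermis, where the value was -0.94 (adjusted p = 0.136) with the Y-linked share as a covariate.

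Ifi27l2a, which encodes a small membrane protein, was the most abundant member in WT skin by TPM, while by CPM it and Ifitm3 overlapped. It was at 129, 96.8 and 114 CPM in WT skin, 25.5, 14.0 and 25.8 in KO skin, 8.04, 7.24 and 11.6 in WT epidermis and 4.03, 5.5 and 5.16 in KO epidermis. Both preparations showed lower KO libraries without overlap, and KO skin remained above WT epidermis. The fall was 2.29 (SE 0.26, adjusted p = 0.000798) in skin and 0.85 (SE 0.24, adjusted p = 0.0169) in epidermis on the log2 scale, and the difference of the effects was 1.51 (SE 0.35, adjusted p = 0.0163). The epidermal call was lost with the Y-linked share as a covariate (-0.58, adjusted p = 0.218) and without Epidermis WT 3 (adjusted p = 0.0537) or Epidermis KO 1 (adjusted p = 0.0542). The difference held in 19 of 19 alternative settings, which did not include the Y-linked share.

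Samd9l, a restriction factor that acts on translation, was called lower in skin and higher in epidermis. It was at 6.37, 7.31 and 10.3 CPM in WT skin and 2.62, 2.71 and 3.87 in KO skin, and at 0.883, 1.17 and 0.864 in WT epidermis and 1.34, 13.1 and 2.54 in KO epidermis. The groups did not overlap, but Epidermis KO 2 alone was above the WT skin libraries. Samd9l fell by 1.28 (SE 0.26, adjusted p = 0.00767) in skin and rose by 2.53 (SE 0.80, adjusted p = 0.0273) in epidermis. The skin call was lost with the Y-linked share as a covariate (adjusted p = 0.0602), with Skin KO 2 alone (adjusted p = 0.0727) and in 1 fit of all 12 libraries (adjusted p = 0.0865). Without Epidermis KO 2 the epidermal value was 1.00 (adjusted p = 0.0917), and the call was also lost without each WT library of epidermis (adjusted p from 0.0658 to 0.0867). Trim30a, a regulator of inflammatory signalling, was at 6.23, 5.17 and 7.11 CPM in WT skin and 2.13, 1.86 and 4.31 in KO skin, and at 0.265, 0.620 and 0.432 in WT epidermis and 1.5, 2.79 and 0.636 in KO epidermis. Each KO library was below the WT libraries in skin and above them in epidermis. The fall in skin was 1.06 (SE 0.35, adjusted p = 0.0427), and it was lost without each skin library but Skin KO 3 (adjusted p from 0.0608 to 0.121). The Trim30a call in skin was also lost with the Y-linked share as a covariate (-1.19, adjusted p = 0.152).

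Rtp4, a chaperone of receptors, averaged 5.39 ± 2.66 CPM (SD, n = 3) in WT and 1.85 ± 0.303 in KO skin, a fall of 1.44 (SE 0.42, adjusted p = 0.0282) that was lost without each skin library but Skin WT 2 (adjusted p from 0.052 to 0.0897). With the Y-linked share as a covariate the Rtp4 call was lost too (-1.66, adjusted p = 0.0948). Rtp4 held 16 reads in WT and 30 in KO epidermis. Parp14, an ADP-ribosyltransferase, and Ifi35, an adaptor-like protein, did not pass in either preparation. Parp14 had log2 fold changes of -0.36 (SE 0.20, adjusted p = 0.174) in skin and 0.11 (SE 0.21, adjusted p = 0.683) in epidermis, and Ifi35 of 0.20 (SE 0.16, adjusted p = 0.343) and -0.14 (SE 0.19, adjusted p = 0.568). Ifi44 gave 11, 3 and 18 reads in WT skin, 1, 2 and 7 in KO skin and 3 reads in all of epidermis, too few for a test.

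The 2 membrane restriction factors moved in opposite directions in skin. Bst2 (tetherin), which holds budding virus at the cell surface, averaged 20.5 ± 8.82 CPM (SD, n = 3) in WT skin and 8.47 ± 1.45 in KO skin, a fall of 1.18 (SE 0.33, adjusted p = 0.0245) that was lost without Skin WT 3 or any 1 of the KO libraries (adjusted p from 0.0527 to 0.0777). The skin call of Bst2 was also lost with the Y-linked share as a covariate (-1.03, adjusted p = 0.164). In epidermis the log2 fold change of Bst2 was -0.38 (SE 0.26, adjusted p = 0.237). Ifitm3 was at 119, 96.1 and 114 CPM in WT skin and 227, 298 and 263 in KO skin, and at 166, 126 and 114 in WT epidermis and 190, 140 and 136 in KO epidermis. The skin groups were far apart with the KO libraries on top, and the epidermal groups overlapped. Ifitm3 rose by 1.35 (SE 0.16, adjusted p = 0.000878) in skin, and its epidermal value was 0.21 (SE 0.18, adjusted p = 0.347). Its relatives Ifitm1 and Ifitm2, in the list of other interferon targets, also rose in skin. Per transcript length, Ifi27l2a (median 517 TPM, range 507 to 645) stood above Ifitm3 (290, range 269 to 364) in WT skin, and Ifitm3 (745, range 615 to 812) above Ifi27l2a (124, range 68.9 to 131) in KO skin. These ranges did not overlap. In epidermis Ifitm3 was the most abundant member in both genotypes (medians 261 and 306 TPM), and 3 members (Ifit3, Oasl1 and Rsad2) had a median of 0 TPM in WT epidermis.

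**Figure D3:**
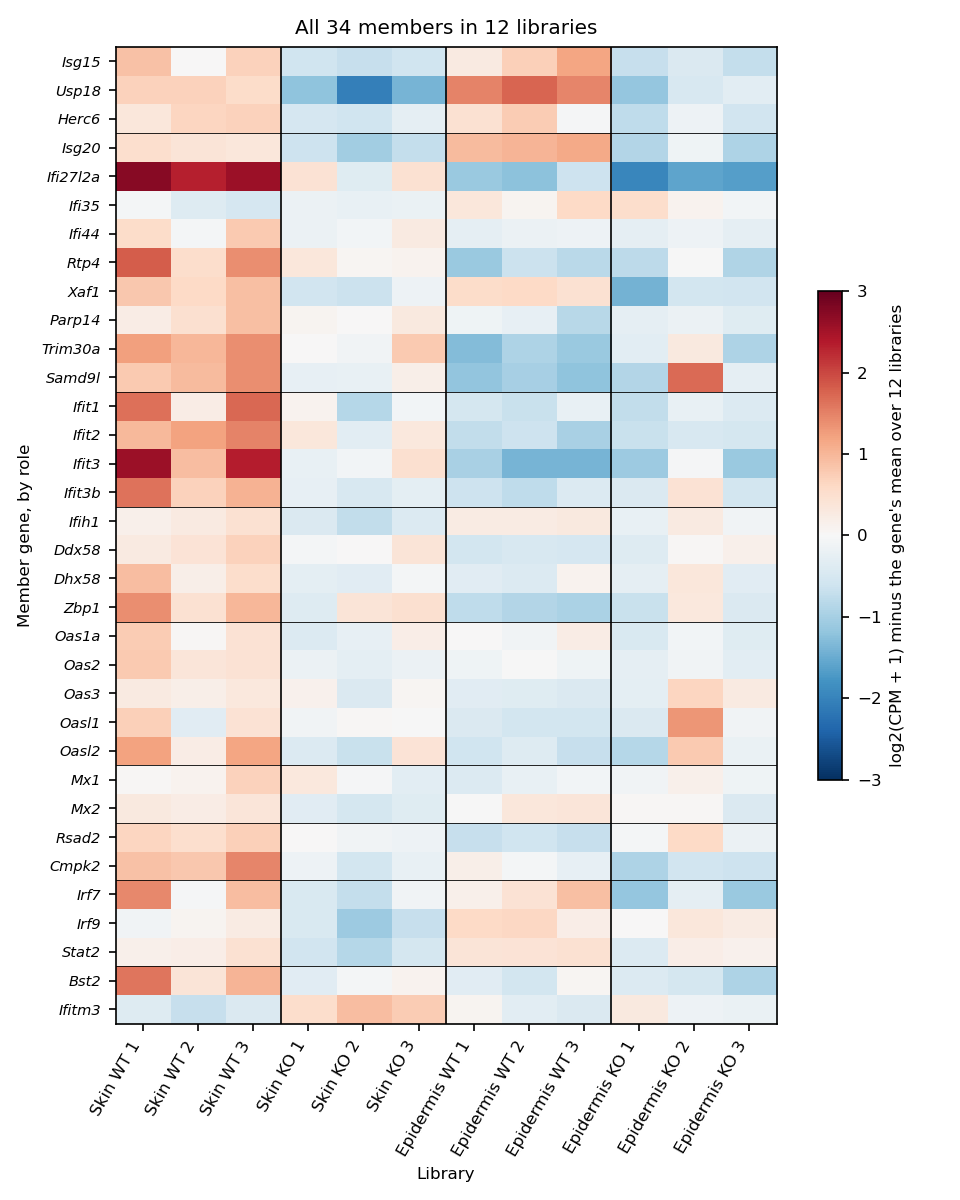
Each row is 1 of the 34 members, grouped by role, and each column 1 of the 12 libraries. Colour is log2(CPM + 1) minus the gene's mean over the 12 libraries. The 3 WT skin columns are red for most members, Ifitm3 at the bottom is red in KO skin, and Epidermis KO 2 is the highest of its group for 29 of 34 members.

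Whether the genotype effect differed between the preparations was tested directly in 1 fit of all 12 libraries. Of 32 members tested, the effect was higher (less negative or more positive) in epidermis for 7 and lower for 1, against 10.1% and 6.36% of all 15394 genes (16.5% in either direction), and the median difference was 1.06 on the log2 scale, beside 0.08 over all genes. Of the 7, Rsad2, Ifit3, Ifit3b, Zbp1 and Trim30a were too low to be tested within epidermis, with 1 to 17 reads in its WT libraries together. They entered this test through skin, where they are high. Ifit2, Oas2, Oas3, Oasl1, Mx2 and Rtp4 were also in this test and too low to be tested within epidermis. Nothing is therefore read from the count or the median against all genes. The 7 were Rsad2 (adjusted p = 0.00305), Ifi27l2a, Ifit3b (difference 5.23, SE 1.24, adjusted p = 0.0172), Samd9l (3.89, SE 0.94, adjusted p = 0.0185), Trim30a (2.99, SE 0.73, adjusted p = 0.0188), Ifit3 (5.03, SE 1.39, adjusted p = 0.0315) and Zbp1 (2.60, SE 0.76, adjusted p = 0.0383). The 1 in the other direction was Ifitm3 (-1.06, SE 0.25, adjusted p = 0.0172). For Rsad2 no size is given because WT epidermis held 1 read, and for Ifit3 and Ifit3b the size rests on 4 reads each there. Rsad2, Ifi27l2a and Ifitm3 kept the call in 19 of 19 alternative settings. The Y-linked share was not among these settings, so the difference was not tested with it. Of the 8 members that fell in both preparations, all but Ifi27l2a did not pass this test, with differences from -0.45 (Isg20, SE 0.37, adjusted p = 0.417) to 0.51 (Cmpk2, SE 0.64, adjusted p = 0.603).

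Several of these calls rested on Epidermis KO 2. It was the highest of the 3 KO epidermis libraries for 29 of 34 members, against 3 for Epidermis KO 1 and 2 for Epidermis KO 3, and without it 3 members instead of 7 had a higher effect in epidermis. The number was 4 without Epidermis WT 3, 11 without Skin WT 2 and 12 without Epidermis KO 1. Without Epidermis KO 2, Ifit3 (adjusted p = 0.173), Ifit3b (adjusted p = 0.0799), Zbp1 (adjusted p = 0.114) and Trim30a (adjusted p = 0.0532) lost the call. Ifit3 also lost it without Skin WT 3, Skin KO 1, Skin KO 2, Epidermis WT 2 or Epidermis WT 3 (adjusted p from 0.0561 to 0.0787), Zbp1 without any other library except Skin WT 2, Skin KO 3 and Epidermis KO 1 (adjusted p from 0.0515 to 0.0914), and Samd9l without Epidermis WT 3 (adjusted p = 0.051). With the replicate number as a block, Zbp1 was lost (adjusted p = 0.0723) and Ifit1 (adjusted p = 0.0264), Oasl2 (adjusted p = 0.037) and Rtp4 (adjusted p = 0.0438) were gained.

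**Figure D4:**
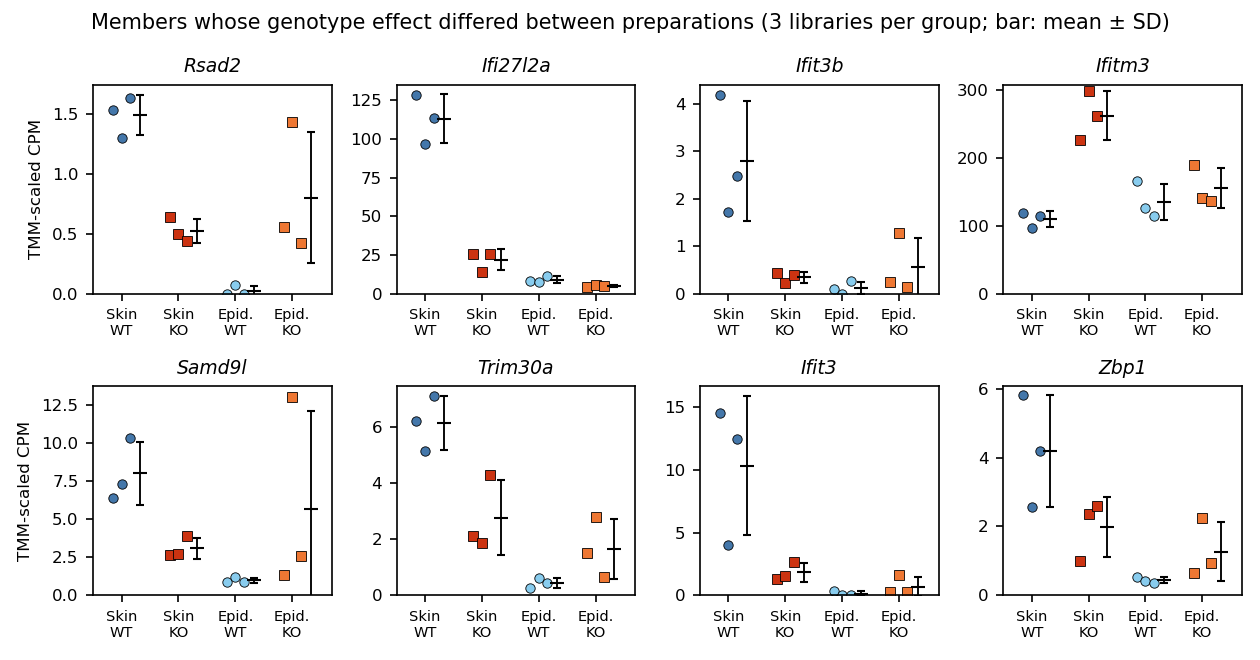
TMM-scaled CPM (y axis) of the 8 members whose genotype effect differed between whole skin and epidermis, 1 point per library, with mean and SD of 3 libraries beside each group. Rsad2, Ifit3b, Samd9l, Trim30a, Ifit3 and Zbp1 are high in WT skin and near 0 in WT epidermis, and Epidermis KO 2 is the highest KO epidermis library in these 6 panels.

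Among wild type libraries most members were lower in epidermis than in whole skin. Of 31 tested, 18 were lower and 3 higher in WT epidermis, against 25.3% and 17.6% of all 14596 genes (42.9% in either direction), with a median log2 difference of -1.22, beside -0.07 over all genes. Among the 18, Ifit2, Ifit3, Ifit3b, Oas2, Oas3, Rsad2, Rtp4, Zbp1 and Trim30a were too low to be tested within epidermis. They entered this test through skin, where they are high, so nothing is read from the count or the median against all genes. These libraries are the same WT libraries used in both genotype comparisons. The 3 higher in epidermis were Usp18 (0.96, SE 0.15, adjusted p = 0.00175), Isg20 (0.66, SE 0.17, adjusted p = 0.0169) and Ifi35 (0.66, SE 0.21, adjusted p = 0.0344). In the IFIT family, Ifit1 was lower by 2.76 (SE 0.58, adjusted p = 0.00721). Ifit2, Ifit3 and Ifit3b were also called lower, but held 6, 4 and 4 reads in WT epidermis. No size is therefore given for them. Ifi27l2a was lower by 3.69 (SE 0.24, adjusted p = 3.87e-05), Trim30a by 3.78 (SE 0.34, adjusted p = 0.000169) and Samd9l by 3.04 (SE 0.29, adjusted p = 0.000202). The size for Trim30a rests on 17 reads in WT epidermis. Rsad2 gave 74 reads in WT skin and 1 in WT epidermis, a ratio of 66.5 (95% counting interval 11.6 to 2660). Stat2 (0.12, SE 0.14, adjusted p = 0.516), Ifih1 (-0.06, SE 0.14, adjusted p = 0.736) and Isg15 (0.20, SE 0.36, adjusted p = 0.68) did not pass. The call of Isg20 was lost without Skin WT 2 or Skin WT 3, and that of Ifi35 without either of these or without Epidermis WT 1 or Epidermis WT 3. Dhx58 lost the call without Skin WT 1, Skin WT 3, Epidermis WT 1 or Epidermis WT 2, Oas2 without any library but Skin WT 2, Bst2 without Epidermis WT 1 or Epidermis WT 2, and Parp14 without Skin WT 3.

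The interferon ligands themselves were nearly absent. Of 20 ligand genes, 17 had 0 reads in all 12 libraries, among them Ifnb1 and the listed Ifna genes, and the other 3 (Ifng with 12 reads, Ifnk with 2 and Ifnz with 2) summed to 16 reads, so no ligand could be tested. A count of 0 in a library allows up to 3 counts, or 0.179 to 0.246 CPM. For the lists that follow, the shares of all genes tested are 22.2% higher and 23.3% lower in skin and 26.2% higher and 25.3% lower in epidermis, and a list near them is not set apart by its count. Of the 6 receptor genes, 1 fell and none rose in skin, where Ifnlr1, the type III receptor chain, was lower by 0.63 (SE 0.16, adjusted p = 0.0186). In epidermis 3 rose and none fell, namely Ifngr2 (1.26, SE 0.13, adjusted p = 0.000153), Ifnar2 (0.75, SE 0.19, adjusted p = 0.0115) and Il10rb (0.49, SE 0.15, adjusted p = 0.0245).

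Of 9 other JAK-STAT and IRF genes, 1 rose in skin (Irf8, a factor of dendritic cells and macrophages, by 0.85, SE 0.21, adjusted p = 0.0145), and in epidermis 4 rose and 1 fell. The epidermal calls with the smallest adjusted p were Irf3, which switches on interferon genes after sensing (-0.84, SE 0.12, adjusted p = 0.000738), and the kinases Jak1 (0.60, SE 0.11, adjusted p = 0.00211) and Jak2 (0.68, SE 0.13, adjusted p = 0.00316). Among 9 negative regulators, 5 rose and 1 fell in skin, and 3 rose and 2 fell in epidermis. Socs3, a feedback inhibitor of JAK kinases, was at 25.6, 38.8 and 31.9 CPM in WT skin and 76.8, 72.3 and 68.9 in KO skin, and at 311, 347 and 352 in WT epidermis and 135, 177 and 143 in KO epidermis. It moved in opposite directions without overlap in either preparation. The rise was 1.27 (SE 0.16, adjusted p = 0.00132) in skin, the fall 1.14 (SE 0.14, adjusted p = 0.000312) in epidermis, and the difference -2.33 (SE 0.22, adjusted p = 0.000226). Its relative Socs1 rose in skin by 1.44 (SE 0.21, adjusted p = 0.00214) and Ptpn2, a phosphatase of JAKs and STATs, by 0.66 (SE 0.15, adjusted p = 0.00943), while in epidermis Samhd1 (0.81, SE 0.14, adjusted p = 0.00187) and Adar (0.66, SE 0.16, adjusted p = 0.00845), which limit the nucleic acids that are sensed, rose.

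Of 15 further nucleic acid sensors and adaptors, 8 of 14 tested rose and 1 fell in skin, and 8 of 12 rose and 2 fell in epidermis. The skin calls were led by the adaptors Myd88 (0.85, SE 0.11, adjusted p = 0.00118) and Traf3 (1.11, SE 0.16, adjusted p = 0.00188) and the DNA sensor Aim2 (2.80, SE 0.45, adjusted p = 0.00287). The epidermal calls were led by the ligase Trim25 (1.12, SE 0.11, adjusted p = 0.000104), Traf3 (1.38, SE 0.15, adjusted p = 0.00018) and Aim2 (2.03, SE 0.34, adjusted p = 0.00134). Of 22 genes of the interferon gamma response, 3 of 20 tested rose and 8 fell in skin, and 4 of 18 rose and 6 fell in epidermis. Cd274 (PD-L1) rose by 2.68 (SE 0.22, adjusted p = 0.000307) in skin and by 3.74 (SE 0.27, adjusted p = 2.48e-05) in epidermis, whereas Gbp3, a guanylate-binding GTPase, fell by 1.62 (SE 0.23, adjusted p = 0.00196) in skin and Psmb9, an immunoproteasome subunit, by 0.97 (SE 0.13, adjusted p = 0.000511) in epidermis. Ciita, the regulator of MHC class II genes, rose by 2.63 (SE 0.33, adjusted p = 0.000355) in epidermis.

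A list of 51 other type I interferon targets ran in both directions. Of 47 tested in skin, 20 fell and 6 rose, and of 36 tested in epidermis 8 fell and 8 rose. Their median log2 fold change was -0.73 in skin and 0.07 in epidermis. The leading skin calls were Tdrd7 (-1.14, SE 0.14, adjusted p = 0.00101), Trim34a (-2.25, SE 0.35, adjusted p = 0.00263) and Oas1c (-1.24, SE 0.21, adjusted p = 0.00346). The leading epidermal calls were Slfn2, a regulator of leukocyte quiescence (4.81, SE 0.47, adjusted p = 0.000112), Nt5c3, a nucleotidase (-1.33, SE 0.14, adjusted p = 0.000145), and Trim34a (-1.88, SE 0.23, adjusted p = 0.000303). In the test of the difference, 16 of 47 were higher in epidermis and 2 lower, against 10.1% and 6.36% of all 15394 genes. Within epidermis only 36 of the list could be tested, so some entered this test while too low there. Nothing is read from this count against those shares.

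Markers of other cell types moved with genotype. In skin, 10 of 10 endothelial markers fell, with summed levels of 89.6 to 97.7 TPM in WT and 26.7 to 36.8 in KO libraries. So did 5 of 10 fibroblast markers (907 to 1777 and 383 to 788 TPM) and 8 of 9 adipocyte markers (1983 to 3255 and 252 to 503 TPM). Skeletal muscle markers fell for 8 of 8, at 60800, 9181 and 24225 TPM in WT and 2851, 1029 and 580 in KO libraries. Schwann cell and nerve markers fell for 6 of 8 (186 to 232 and 42.3 to 53.7 TPM). Among macrophage markers, 2 of 11 were lower and 1 higher in skin (470.5 to 646 TPM in WT, 175 to 538 in KO). Of the markers of plasmacytoid dendritic cells, a known source of interferon, 3 of 7 fell and 3 rose in skin, and the summed level (1610 to 1828 TPM in WT, 2060 to 2507 in KO) is almost all Ly6d, which keratinocytes also make. The defining marker Siglech gave 11, 25 and 20 reads in WT skin, 5, 6 and 6 in KO skin, 0 in each WT epidermis library and 1 in each KO epidermis library. The part of these cell types in the lower members of skin was not tested.

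In KO epidermis, markers of some cells from outside the epidermis were higher and others were not. Of adipocyte markers none of 5 tested was higher and 1 was lower (33.1 to 34.8 TPM in WT, 28.1 to 44.9 in KO), none of 4 skeletal muscle markers was called, and 1 of 3 endothelial markers was higher. Fibroblast markers were higher for 9 of 9 tested, with summed levels of 25.6 to 34.5 TPM in WT libraries and 67.7, 100.2 and 83.3 in KO libraries 1, 2 and 3, and macrophage markers for 8 of 9, with 7.82 to 7.95 TPM in WT and 69.0, 97.6 and 37.6 in KO libraries. Epidermis KO 2, the library with the highest value of most members, was the highest in both lists. Langerhans and dendritic cell markers were higher for 6 of 7 (473 to 553 TPM in WT, and 1586, 1079 and 995 in the KO libraries), and here, as for neutrophil markers (48102, 30911 and 25008), Epidermis KO 1 was the highest. Their part in the members that were higher in KO epidermis was not tested. Neutrophil markers rose for 8 of 8 tested in skin and 7 of 7 in epidermis, and their sum, 22.6 to 80.2 TPM in WT skin and 49650 to 57877 in KO skin, is mostly S100 and stefin genes, which inflamed keratinocytes also make. The granulocyte marker Ly6g was at 0 reads in the 6 WT libraries and at 1 to 5 reads in each KO library. Keratinocyte markers summed to 22410 to 31754 TPM in WT skin and 37792 to 48007 in KO skin. In epidermis the sums were 34066 to 35960 TPM in WT and 36584 to 42063 in KO libraries. Of the 12 listed genes, 5 rose and 3 fell in skin, 4 rose and 3 fell in epidermis, and each was detected in each group. The part of these levels in the members was not tested.

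**Figure D5:**
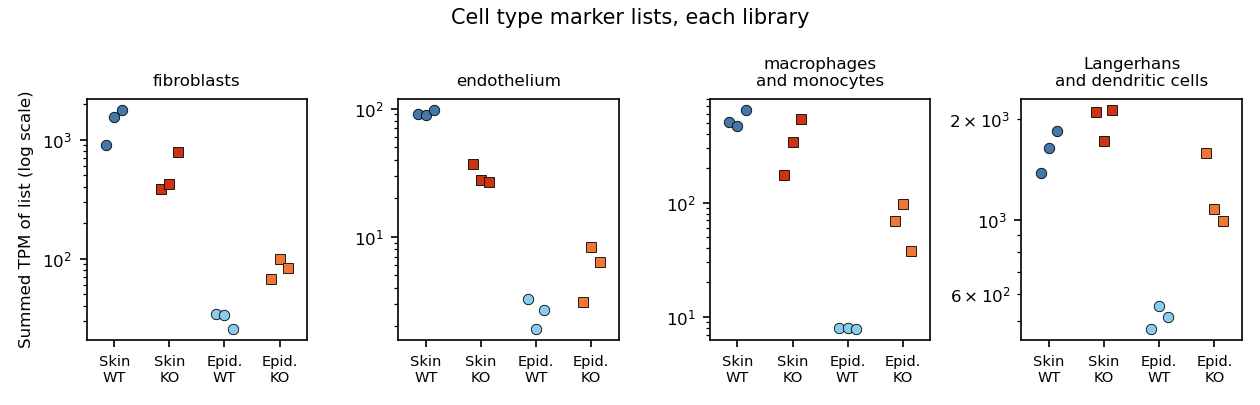
Summed TPM (y axis, log scale) of 4 marker lists, 1 point per library in WT and KO skin and WT and KO epidermis. Endothelial markers lie between 89.6 and 97.7 TPM in WT skin and between 26.7 and 36.8 in KO skin, and macrophage markers between 7.82 and 7.95 TPM in WT epidermis and between 37.6 and 97.6 in KO epidermis.

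The genes whose pattern over the 12 libraries was most like the mean standardised level of 32 members were Pdp1 (Pearson r = 0.955), Kif3c (0.946), Slc27a1 (0.943), Fbxo3 (0.938) and Pacs2 (0.938), among 13318 genes. Pdp1, for example, was at 25.0, 17.2 and 22.8 CPM in WT skin, 11.7, 10.0 and 12.3 in KO skin, 10.9, 10.7 and 9.50 in WT epidermis and 9.25, 11.6 and 9.75 in KO epidermis. Its WT skin libraries stood above all others, with Skin WT 2 the lowest of them, which is also the order of the members' mean. None of the 5 is on the interferon lists used here, and the libraries share depth, preparation and group, so the values are a description.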

How the data were processed

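RNA of 12 mouse skin libraries was measured by poly(A) RNA-seq, prepared with a stranded TruSeq mRNA kit per the labels' protocols. The deposited gene tables hold expected counts, estimated by the authors with RSEM; the submitters' processing notes also name STAR 2.5.1, bcl2fastq 2.17 and the build mm10. They also hold TPM and effective lengths from RSEM, per the file headers. No annotation release or strand setting is given in the sources used here. Of 47643 gene IDs, 47224 matched the GRCm38 gene annotation when version suffixes were ignored, which supplied symbols.

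Expected counts were rounded and tested with edgeR 4.0.16 in R 4.3.3 (TMM factors, its default filter on low counts, quasi-likelihood test, Benjamini-Hochberg adjustment over all genes tested, threshold 0.05), tested on simulated data. The genotype effect was fitted within each preparation, wild type epidermis against wild type skin with those libraries, and the interaction of genotype and preparation over all 12. The SE is the log2 fold change divided by the square root of F. Alternatives were RLE and upper quartile scaling, DESeq2 1.42.0, limma-voom (limma 3.58.1), no filter, a replicate block, effective length offsets, 1 fit of all 12 libraries, the Y-linked share as a covariate, leaving out skin KO libraries with Y-linked reads, and leaving out each library. The Y-linked share was used for the genotype effects within skin and within epidermis, not for the interaction.

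Library totals ran from 12208522 to 16743144, and 8.42% to 9.98% of values were not whole. Same-numbered skin libraries deviated together (correlations 0.339, 0.359 and 0.206), so the numbers may pair them. This pairing comes from the data, not the labels. The main skin fit did not use it, so its SE and adjusted p are those of an unpaired test. With the replicate block, an alternative setting, 24 members were called lower in skin, beside 23 in the main fit. In epidermis the correlations were 0.0745, 0.140 and -0.0550, so the numbers were not taken to pair those libraries.

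Members and gene lists were chosen with earlier results of these data known. Values in every library are printed for members past the threshold in epidermis or in the difference, and for the 12 with the smallest adjusted p in skin. Of each pathway list, up to 3 genes with the smallest adjusted p past the threshold are named in each preparation. Exact 95% intervals of low counts cover counting error only.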

Additional observations from a re-analysis of the deposited data

Results flagged for a closer look

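For 8 members the genotype effect differed between epidermis and whole skin in the edgeR interaction test, which is why they are listed here. Among them, Rsad2, Ifit3, Ifit3b, Zbp1 and Trim30a were too low to be tested within epidermis, with 1 to 17 reads in its WT libraries together. They entered this test through skin, where they are high, so nothing is read from their number. Rsad2 had the smallest adjusted p (0.00305), with KO libraries below WT libraries in skin and above them in epidermis, where WT held 1 read. Ifi27l2a (adjusted p = 0.0163) fell in both preparations, by 2.29 in skin and 0.85 in epidermis on the log2 scale. Ifitm3 (adjusted p = 0.0172) rose in skin and did not pass in epidermis.

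Ifit3b (adjusted p = 0.0172), Samd9l (adjusted p = 0.0185), Trim30a (adjusted p = 0.0188), Ifit3 (adjusted p = 0.0315) and Zbp1 (adjusted p = 0.0383) had a more positive effect in epidermis. For these 5 members Epidermis KO 2 held the highest value of the 3 KO epidermis libraries, and without it Samd9l kept its call while the other 4 lost it. Macrophage and fibroblast markers were also highest in that library among KO epidermis, at 97.6 and 100.2 TPM summed, and their part in these values was not tested.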

How the results depend on the processing

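With the Y-linked share as a covariate, the members called lower in skin went from 23 to 14, those in epidermis from 8 to 3, those higher in epidermis from 1 to 3, and all genes called in epidermis from 7014 to 4540. Leaving out skin KO libraries with Y-linked reads left 1 KO library, assumed to vary like the others, and gave 11 members lower and 2658 genes called instead of 6780. The count of members higher in epidermis was 0 with limma-voom, 4 without the filter, 2 with effective length offsets and 5 in 1 fit of all 12 libraries. The count higher in the difference was 12 with DESeq2 and 4 with limma-voom, beside 7. Epidermal values that changed sign, none past the threshold, were Ifit1 (-0.00427 with upper quartile scaling), Dhx58 (-0.29 with effective length offsets), and Ifih1 (0.00735) and Ifitm3 (-0.0697) with the Y-linked share.

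Leaving out 1 library gave 1 to 2 members higher and 15 (without Skin WT 3) to 24 lower in skin, 0 to 5 higher and 5 (without Epidermis KO 1) to 9 lower in epidermis, 1 (without Skin WT 2 or Skin WT 3) to 3 higher in WT epidermis against WT skin, and 3 (without Epidermis KO 2) to 12 (without Epidermis KO 1) higher in the difference, where 1397 to 3940 genes were called. The epidermal values of Ifit1 ran from -0.22 to 0.38, of Dhx58 from -0.16 to 0.58 and of Parp14 from -0.10 to 0.25. The cause of these changes was not tested.

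With the replicate block, 24 members were lower in skin, 8 lower and 1 higher in epidermis, 16 lower in WT epidermis (Dhx58 and Oas2 lost), and 9 higher in the difference. Members at a few reads per library, such as Mx1, Ifi44 and Oasl1, lie at the limit that depth allows.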
